A study of Mus musculus with 24 samples.

Results

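The AP-1 transcription factor is a dimer of basic leucine zipper (bZIP) proteins. The 10 genes described here are a set listed by name, put together with earlier results of these data known: Jun, Junb and Jund encode the Jun proteins, Fos, Fosb, Fosl1 and Fosl2 the Fos proteins, and Atf3, Batf and Batf3 encode related bZIP proteins that pair with them. They are 10 of 21755 protein-coding genes of the GENCODE vM21 annotation. H3K4me3 was mapped by ChIP-seq in C127, an established mouse line that the labels describe as mammary epithelium, and a gene was said to have a peak when one came within 250 bp of any of its transcription start sites (TSSs). The study asked how CFP1, a subunit of the SET1 methyltransferase complex, selects promoters.

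The series held 24 samples in 12 groups, all from C127 cells. The H3K4me3 ChIP had 3 replicates and was set by the authors against 1 input sample. The other 21 samples were that input and 2 each of ChIP for endogenous CFP1, KDM2B and RNA PolII, of GFP ChIP in lines that stably express GFP alone, GFP-CFP1 wild type or its CXXC, PHD, CXXC and PHD, or SID mutant, and of input, and none of them was analysed here. The authors combined the 3 replicates into 1 list of 13451 peaks, 233 to 37217 bp wide, giving positions and no heights. There was therefore no spread between replicates, the depth is unknown, no test was possible, and every value below is a description of that list. As a check of the cell type, 0 of 9 epithelial marker genes (Epcam, Cdh1, Krt8, Krt18, Krt5, Krt14, Cldn3, Cldn4 and Cldn7) had a TSS peak. The counts were 6 of 6 for mesenchymal markers (Vim, Fn1, Snai2, Twist1, Zeb1 and Cdh2) and 0 of 5 for immune markers (Ptprc, Cd3e, Spi1, Itgam and Csf1r). Over all protein-coding genes the share was 49.4%, and it was 70.2% with a CpG island (described below) at a TSS and 5.02% without. An island lay at 8 of the 9 epithelial, 6 of the 6 mesenchymal and 1 of the 5 immune markers. The nearest peak was 594 bp away for Krt14 and 1757 bp away for Krt8, both beyond the 250 bp limit. By these markers and that limit, the list did not show the epithelial identity given by the label. The part of this in the results for the AP-1 genes was not tested.

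H3K4me3 marks promoters of transcribed genes, mostly at CpG islands, stretches of DNA that keep a high density of CpG dinucleotides. Several Jun and Fos genes are immediate early genes, transcribed within minutes of a growth signal through serum response factor and the MAP kinases. Batf and Batf3 are best known from immune cells, where they work in T helper cells and in dendritic cells, and Atf3 is induced by many kinds of stress.

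Of the 10 genes, 8 had a TSS peak (80.0%), against 49.4% of all protein-coding genes. These were the 3 Jun genes, the 4 Fos genes and Atf3, while Batf and Batf3 had none. A CpG island lay at a TSS of 9 of the 10 genes, against 68.1% of all genes, and Batf was the exception. Among genes with an island 8 of the 9 had a peak, beside a background of 70.2%, and the one without was Batf3. The windows of 250 bp on either side of the TSSs held no 50-bp word that recurred in the genome (0 of 452 words at each TSS), which matters because the authors discarded reads without a unique position.

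The promoters of Batf3 and Batf, the genes without a peak, are shown because they differ in CpG content. Each runs from 250 bp before to 50 bp after the TSS in the GRCm38 (mm10) reference, on the plus strand, with CpGs in capitals. Batf3 (chr1:191098075-191098374) had 32 CpGs and Batf (chr12:85686419-85686718) had 8.
Batf3: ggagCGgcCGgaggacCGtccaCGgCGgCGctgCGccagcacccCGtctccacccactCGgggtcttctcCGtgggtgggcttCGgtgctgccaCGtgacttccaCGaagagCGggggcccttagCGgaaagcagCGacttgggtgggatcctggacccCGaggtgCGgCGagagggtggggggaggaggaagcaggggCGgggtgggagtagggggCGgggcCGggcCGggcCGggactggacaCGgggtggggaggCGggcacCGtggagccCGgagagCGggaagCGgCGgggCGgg
Batf: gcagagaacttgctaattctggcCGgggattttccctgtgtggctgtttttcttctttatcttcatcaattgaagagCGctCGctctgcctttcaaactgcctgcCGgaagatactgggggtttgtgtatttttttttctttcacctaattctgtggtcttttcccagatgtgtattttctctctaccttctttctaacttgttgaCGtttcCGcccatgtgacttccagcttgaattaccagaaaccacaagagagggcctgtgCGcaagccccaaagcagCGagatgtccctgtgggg

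The median was 21.0 CpGs for genes with a peak and 4.00 for genes without. Batf3 was thus a CpG-rich promoter without a peak: of all genes with 32 to 35 CpGs in this window, 83.4% had one. Of genes with 8 to 11 CpGs, like Batf, 45.0% had a peak, and of those with 12 to 15, like Jun (15 CpGs), 65.3%. Of the other members with a peak, there were 20 CpGs at Fos, 21 at Junb, 26 at the 5′-most TSS of Fosb, 31 at Fosl2 and 38 at Jund. Atf3 has a distal TSS with 5 CpGs and a proximal TSS with 26, and its peak lay at the proximal one.

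**Figure D1:**
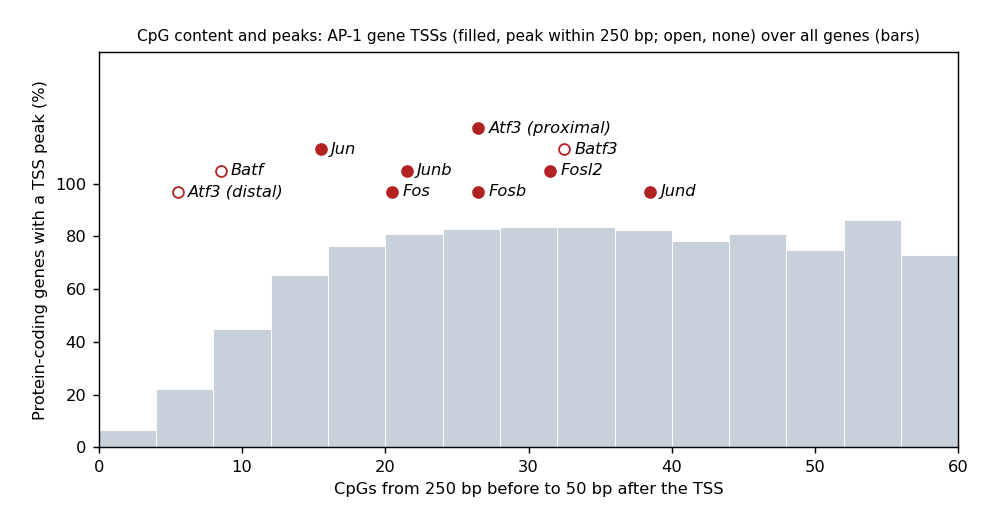
Percent of protein-coding genes with a TSS peak (bars) by the number of CpGs from 250 bp before to 50 bp after the 5′-most TSS. Points mark TSSs of 9 AP-1 genes at their CpG count (filled, peak within 250 bp; open, none; height above the bars has no meaning). The bars count a peak at any TSS of a gene, whereas each point is for its own TSS. In the bars Atf3 is thus a gene with a peak at 5 CpGs, although its distal point is open. Batf3, with 32 CpGs, is an open point where 83.4% of genes had a peak, and the open points of Batf and the distal Atf3 TSS lie at 8 and 5 CpGs.

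The promoters of Jun and Fos are shown for the short motifs in them. Jun (minus strand, chr4:95052173-95052472) and Fos (plus strand, chr12:85473640-85473939) are printed over the same window, with capitals marking TGACNTCA and CCAAT in Jun and TATAAA in Fos.
Jun: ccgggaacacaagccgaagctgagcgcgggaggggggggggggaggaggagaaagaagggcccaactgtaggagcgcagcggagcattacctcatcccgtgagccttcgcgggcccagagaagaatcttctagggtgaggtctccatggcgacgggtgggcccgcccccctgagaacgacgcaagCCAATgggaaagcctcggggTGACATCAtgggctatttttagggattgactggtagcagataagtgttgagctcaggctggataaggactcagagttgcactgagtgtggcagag
Fos: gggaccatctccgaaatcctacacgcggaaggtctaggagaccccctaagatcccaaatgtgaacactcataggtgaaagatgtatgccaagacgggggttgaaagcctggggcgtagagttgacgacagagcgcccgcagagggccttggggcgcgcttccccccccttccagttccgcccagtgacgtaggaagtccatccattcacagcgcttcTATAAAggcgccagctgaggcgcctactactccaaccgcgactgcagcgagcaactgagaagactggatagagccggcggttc

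Motifs were searched on both strands of the windows at the 5′-most TSSs of 9 members. TGACNTCA, the class of sites bound by CREB proteins and by dimers of Jun with ATF proteins, occurred in 3 members, against 8.32% of all promoters: as TGACATCA from -45 to -38 in Jun, as TGACGTCA from -214 to -207 in Jund, and as TGACCTCA from -27 to -20 at the distal TSS of Atf3. TGANTCA, the AP-1 site proper, was in 0 of the 9 windows and in 6.67% of all promoters, and the CArG box, the binding site of serum response factor (CC, then A or T throughout, then GG), was in 0 of the 9 and in 1.49%. TATAAA was found in 2 of the 9, Fos (-33 to -28) and Junb (-30 to -25), against 12.5% of promoters. CCAAT stood in all 3 Jun genes, beginning at -65 in Jun, -66 in Junb and -85 in Jund, and in none of the other 6 windows at 5′-most TSSs, against 38.7% of promoters. It also stood, on the other strand, at a further Fosb TSS (-162 to -158) and at the proximal Atf3 TSS (12 to 16), the one with the peak. GGGCGG was held by 7 of the 9, all but Junb and the distal Atf3 window, against 45.3%. The proximal Atf3 window, at the TSS with the peak, held 5 matches to GGGCGG and no TGACNTCA. Most members had a peak, and among all genes with a peak the shares were 66.5% for GGGCGG, 39.2% for CCAAT, 6.46% for TATAAA, 7.16% for TGACNTCA, 4.37% for TGANTCA and 1.25% for the CArG box. Sites outside these windows, such as those more than 250 bp upstream of a TSS, were not searched. A count of 0 therefore covers the windows only. None of these matches was tested for binding.

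Widths differed widely within the family. The 8 peaks were 790 to 12398 bp wide, a 15.7-fold range, with a median of 4375 bp, against a median of 3254 bp (quartiles 2410 and 4258 bp) over the 10747 genes with a peak. All but Atf3 were wider than that median, and Jun, Junb, Fosl1 and Fosl2 lay above the upper quartile. In order of width they were Junb, Fosl2, Jun, Fosl1, Fosb, Fos, Jund and Atf3. Fosb, Fos and Jund differed by little, at 3870, 3862 and 3814 bp. With 1 list, the error of a width is unknown, so the order of those 3 cannot be told.

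**Figure D2:**
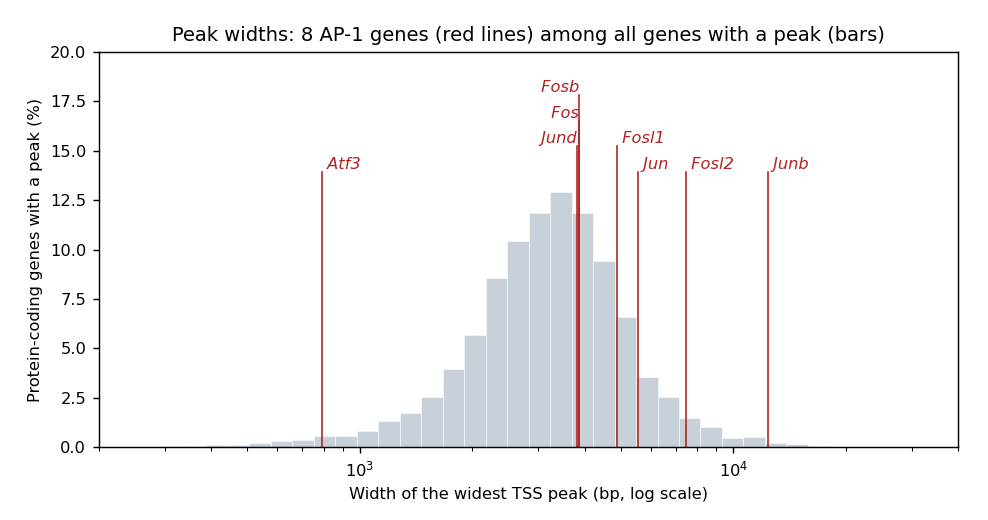
Distribution of the width of the widest TSS peak (bp, log scale) over protein-coding genes with a peak (bars, percent of genes), with the 8 AP-1 genes as red lines. Atf3 at 790 bp lies in the lower tail, and the other 7 lines lie to the right of the tallest bar, with Junb at 12398 bp farthest out.

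The Jun genes are short and have a single exon each, and their peaks covered them whole. Jun, the founding AP-1 subunit, is a gene of 3189 bp at chr4:95049034-95052222 (minus strand), and its peak (chr4:95048521-95054063) was 5543 bp wide, wider than 90.5% of the peaks of other genes. It reached 1841 bp upstream and 3701 bp downstream of the TSS and ended 513 bp past the gene. It covered all 1002 bp of coding sequence and overlapped Junos, an antisense gene. A single island of 3575 bp with 271 CpGs made up 64.5% of the peak.

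Junb, a Jun protein that often opposes Jun, carried the widest peak of the family. The gene spans 4235 bp at chr8:84974484-84978718 (minus strand) and its peak (chr8:84974438-84986835) spanned 12398 bp, rank 43 of the 10747. It reached 8117 bp upstream of the TSS, further than 99.7% of peaks, and 4280 bp downstream. It ended 46 bp past the annotated gene, but 2472 bp past the end of its basic coding transcript, which is 1809 bp long. The peak also overlapped the annotated 3′ end of Prdx2, a peroxiredoxin gene that converges on Junb. It was no single island: 5 islands lay within it and took 34.2% of its length, the farthest from -7689 to -7062 bp. It left 2318 bp to the peak at Prdx2 on one side and 2169 bp to the peak at Hook2 on the other.

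Jund, the most steadily expressed Jun gene in many cells, is the shortest member at 1668 bp (chr8:70698949-70700616, plus strand). Its peak (chr8:70698131-70701944) was 3814 bp wide, close to the middle of the distribution at the 65.4th percentile, yet it extended 1328 bp past the gene end. It began 818 bp upstream of the TSS and overlapped the antisense RNA gene Gm11175. RefSeq places the Jund start further upstream, 392 bp outside the peak, so the call there rests on the GENCODE start.

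Peaks passed the gene end in these 3 genes and in no other member. Over all genes with a peak 3.57% did so, and 30.4% of those of at most 5 kb, the class that holds the 3 Jun genes and Fos. Among single-exon genes of at most 5 kb the share was 49.8%. The ratio of peak width to gene length was 2.93 for Junb, 2.29 for Jund, 1.74 for Jun and 1.14 for Fos, against a median of 1.155 for genes of at most 5 kb and 0.1270 for all genes with a peak. The ratio was 0.581 for Fosl1, 0.526 for Fosb, 0.339 for Fosl2 and 0.0165 for Atf3, with a median of 0.861 over the 8. The 4 shortest genes had the 4 highest ratios.

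**Figure D3:**
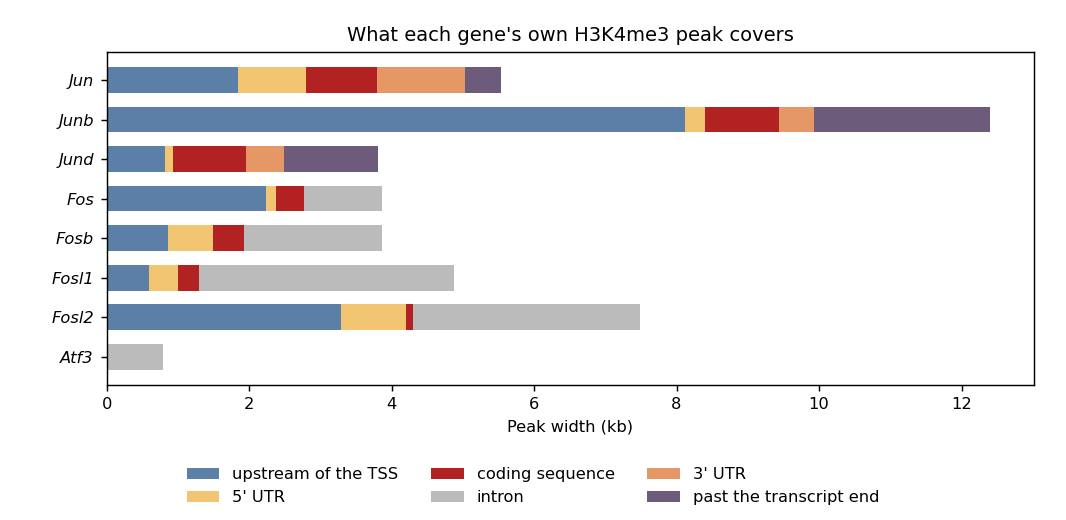
Length in kb of each gene's own peak that lay upstream of the TSS, in the 5′ UTR, coding sequence, introns or 3′ UTR, or past the transcript end, for the longest basic coding transcript of each gene. The 3 Jun peaks contain the whole coding sequence and pass the transcript end, whereas the Fos, Fosb, Fosl1 and Fosl2 peaks stop inside the gene and the Atf3 peak is intronic.

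The Fos genes have 4 exons each and their peaks stopped inside them. Fos, the prototype of the immediate early genes, spans 3384 bp at chr12:85473890-85477273 (plus strand). Its peak (chr12:85471657-85475518, 3862 bp) reached 2233 bp upstream but 1628 bp downstream of the TSS, ending 1755 bp before the gene end. It touched 2 of 4 exons and 34.5% of the coding sequence. It overlapped 4 islands, together 74.5% of its length, and 2 of these lay upstream of the promoter island.

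Fosb, induced in neurons and other cells with Fos, spans 7356 bp at chr7:19302696-19310051 (minus strand) and has 3 annotated TSSs, at 19310051, 19310046 and 19309600, all covered by the peak (chr7:19307049-19310918, 3870 bp). The peak reached 867 bp upstream and 3002 bp downstream of the 5′-most TSS, with 44.1% of the coding sequence. Fosl1, which encodes Fra-1, a Fos protein active in migrating and transformed cells, spans 8400 bp at chr19:5447547-5455946 (plus strand). Its peak (chr19:5446945-5451824, 4880 bp) was skewed into the gene, 602 bp upstream and 4277 bp downstream, and covered 50.9% of it.

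Fosl2, which encodes Fra-2, had the second widest peak of the family, 7483 bp (chr5:32132508-32139990), wider than 96.7% of the peaks of other genes. It reached 3293 bp upstream and 4189 bp downstream of the TSS, further than 96.0% and 94.1% of peaks, and overlapped the locus Gm10463. It covered 4190 bp of the gene, which spans 22042 bp at chr5:32135801-32157842 (plus strand), and 10.4% of its coding sequence. The 5 islands in it took 53.2% of the peak.

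Of the 7 peaks that covered the 5′-most TSS, 5 reached further downstream than upstream, against 83.3% of all genes with such a peak. Junb and Fos were the 2 that did not. These reaches are from GENCODE starts. RefSeq places the Fosl2 start at 32136472, inside the gene, and from there the peak reached further upstream than downstream. None of the 8 peaks reached the TSS of another protein-coding gene, whereas 23.7% of genes with a peak had one that did. Some came within 250 bp of a lncRNA TSS: Jun (Gm12703), Jund (Gm11175) and Fosl2 (Gm10463). Their widths and reaches therefore need not belong to 1 start site, and the share of all genes with such a peak was not counted.

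Atf3, a repressor and activator of stress responses, was unlike the others. The gene spans 47744 bp at chr1:191170296-191218039 (minus strand). Its peak (chr1:191182379-191183168) was 790 bp wide, rank 10597 of the 10747, and began 172 bp downstream of the proximal TSS at 191183340 without reaching it. Only 0.912% of genes with a peak had no peak that reached a TSS, and Atf3 was the 1 member among the 8. Of the transcript from that TSS, the peak covered 76 bp of exon and 714 bp of intron, while in the transcript from the distal TSS it was wholly intronic. The island at the proximal TSS is 3781 bp long with 235 CpGs, and 20.9% of it was in the peak. A second peak of 932 bp (chr1:191216108-191217039) lay 1000 bp downstream of the distal TSS, which had no island. The values on either side of the 250 bp limit are therefore 172 bp and 1000 bp.

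Batf and Batf3 lay in stretches without peaks, whose lengths were not compared with those around all genes. Batf spans 22419 bp at chr12:85686669-85709087 (plus strand), with no island and the nearest peak, that of Jdp2, 82.8 kb upstream, in a gap of 219 kb between peaks. Batf3 spans 11099 bp at chr1:191097847-191108945 (plus strand), with an island of 1200 bp and 105 CpGs, and its nearest peak lay 33.2 kb from its TSS, in a gap of 117 kb. That gap ended at the proximal peak of Atf3, which neighbours Batf3 on chromosome 1. Long gaps were not limited to genes without a peak: the one upstream of the Fosl2 peak was longer than both, at 433657 bp.

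Within 50 kb of the 10 genes there were 30 other peaks, of which 15 lay at a TSS of a protein-coding gene, 3 at lncRNA TSSs only, and 12 away from TSSs (7 intergenic, 4 intronic, 1 exonic). Those at TSSs had a median width of 4082 bp and those away from TSSs 1493 bp. One of 10 genes, Batf, had no neighbouring peak, against 38.7% of all genes. Of the 2 genes without a TSS peak it was also 1 of 2, against 55.9% of all genes without a peak. The median count was 2.50 for the members, 8 of which had a TSS peak, against 2 for all genes with a peak, 0 for those without and 1 for all genes.

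Fosb and Fosl1 stood in the densest surroundings, with 8 neighbouring peaks each, at the 99.1st percentile of all genes. Around Fosb, peaks of 1186 bp in an exon and 1559 bp in an intron of the lncRNA D830036C21Rik had Fosb as nearest protein-coding gene (9453 and 16261 bp away). The other neighbours of Fosb were at Vasp (4065 bp, and 1862 bp in its intron), Rtn2 (1242 bp), Gm44698 (2393 bp), Ercc1 and D830036C21Rik (5639 bp), and Cd3eap and Ppp1r13l (7148 bp). Around Fosl1 they were at Drap1 and AI837181 (5412 bp), Ccdc85b (4313 bp, over the 3′ end of Fosl1), Fibp (3565 bp), Efemp2 (4266 bp), and Cfl1 and Mus81 (7637 bp), with 3 intergenic peaks of 1930, 2835 and 1427 bp upstream. The last of these lay 2.15 kb before Fosl1.

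The neighbours of Fos were all intergenic with Fos as their nearest gene: one of 1822 bp at 17.6 kb upstream, and 2 downstream of the gene, of 2912 bp at 8.15 kb and 391 bp at 20.1 kb. Junb had neighbours at Gm49661, Prdx2 and Rnaseh2a (7834 bp, 2.37 kb from the gene), Hook2 (2696 bp) and Asna1 and Trir (6983 bp), and Jund had them at Pgpep1 (4099 bp), Lsm4 (2921 bp) and an intergenic site near Lsm4 (646 bp, 15956 bp from Jund). Jun had 1, of 1882 bp at a TSS of Junos 46.4 kb upstream. Fosl2 had 1 of 682 bp in its own intron, 994 bp from the main peak. Besides its second peak, Atf3 had one of 2441 bp at the lncRNA D730003I15Rik, 5.61 kb upstream, and Batf3 had the peak at Nsl1 and Tatdn3 (3888 bp).

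**Figure D4:**
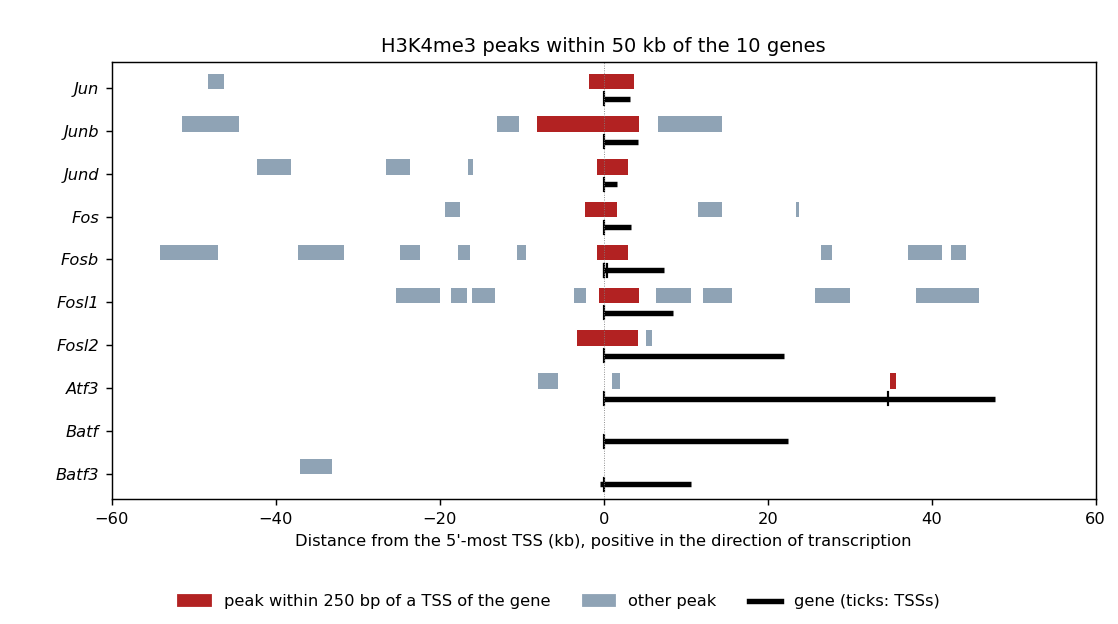
Peaks within 50 kb of the 10 genes, drawn by distance in kb from the 5′-most TSS, positive in the direction of transcription. Red bars are peaks within 250 bp of a TSS of the gene, grey-blue bars are other peaks, and black lines are the genes with ticks at their TSSs. Fosb and Fosl1 have 8 other peaks each and Batf has no peak at all.

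Fos and Batf lie 213 kb apart on chromosome 12 with another bZIP gene between them. This is Jdp2, a repressor that pairs with Jun, whose TSS lies 125 kb from that of Fos and which had a peak of 5801 bp. The next protein-coding gene after Batf, Flvcr2, a membrane transporter gene at 273 kb, had no peak. Along this stretch Fos and Jdp2 thus had TSS peaks while Batf and Flvcr2 had none.

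Against 49.4% of all protein-coding genes, 34 of the 42 other bZIP genes had a peak (81.0%), a share similar to that of the members. Beside 3.57% of all genes with a peak, 2 of the 34 passed the gene end (Cebpb by 4010 bp and Atf4 by 811 bp). The median width of the 34 was 4159.5 bp. The widest were at Ddit3 (10486 bp), the stress factor CHOP; Nfe2l1 (10194 bp), a regulator of proteasome genes; Creb3 (7573 bp); Mafk (7405 bp), a small Maf; and Cebpb (6840 bp), a C/EBP factor of adipocytes and macrophages. The 8 without were Batf2, Cebpe, Creb3l3, Creb3l4, Hlf, Nfe2, Nfe2l3 and Nrl. Peaks were at all 3 genes of the Creb1 type, all 3 of the Atf2 type and all 3 small Mafs, at Atf4, Atf5 and Xbp1, and at 5 of 6 C/EBP genes. They were at 3 of 4 genes of the large Maf and Nrl group, 3 of 4 of the PAR and Nfil3 group, 5 of 7 membrane-bound factors, 4 of 6 of the cap n collar and Bach group, and at Jdp2 and Crebzf but not Batf2. Creb5, at 785 bp, was narrower than Atf3. Of the 38 with an island 34 had a peak, against 70.2% of all genes with an island.

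**Figure D5:**
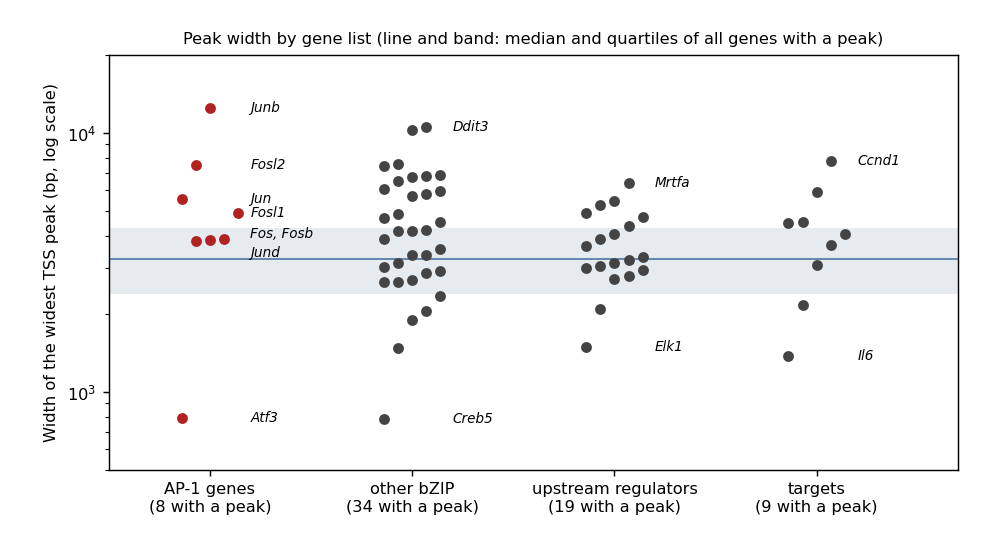
Width of the widest TSS peak (bp, log scale) for the AP-1 genes with a peak (red, left) and for the other bZIP genes, upstream regulators and targets. The line and band are the median and quartiles of all genes with a peak (3254, 2410 and 4258 bp). Junb is above every gene of the other lists and Atf3 is beside Creb5 at the bottom.

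Of 20 genes that act on AP-1 (kinases, serum response factor and its partners, and regulators of Jun turnover), 19 had a peak (95.0%), of median width 3299 bp, against 49.4% of all genes. An island lay at 19 of the 20, all of them with a peak, against 70.2% of all genes with an island. The widest were at Mrtfa (6367 bp), Fbxw7 (5435 bp), a ubiquitin ligase subunit that marks Jun for degradation, Elk3 (5270 bp), Elk4 (4909 bp) and Srf (4720 bp), the serum response factor itself. Mapk10, the JNK kinase of neurons, had none.

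Of 13 target genes with known AP-1 sites, 9 had a peak (69.2%, against 49.4% of all genes), of median width 4045 bp. These were led by Ccnd1 (cyclin D1, 7740 bp), Hmox1 (heme oxygenase, 5910 bp), Plaur (4521 bp), Cd44 (4484 bp) and Spp1 (4045 bp), and Plau was at 2167 bp. The metalloproteinases Mmp3, Mmp9, Mmp10 and Mmp13 had none, and Mmp1a was not matched to a protein-coding symbol. Of 8 targets without an island 4 had a peak (Timp1, Il6, Ccl2 and Spp1), beside a background of 5.02% of genes without an island. All 5 with an island had one, against 70.2% of all genes with an island. Whether AP-1 was bound at any of these genes was not measured.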

How the data were processed

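H3K4me3 ChIP-seq was done on C127 cells. The authors aligned reads to mm10 with Bowtie2, removed duplicates with SAMtools, called peaks with MACS2 for each of the 3 replicates against input, kept peaks present in all replicates, and merged those near one another. Tool versions are not given in the sources used here. The deposited list holds chromosome, start and end of 13451 peaks, of which 13447 on 20 chromosomes were used. It has no scores or depth, so no interval was possible.

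Starts were converted to 1-based positions. TSSs, gene ends and transcripts were those of GENCODE vM21 (basic set), and sequences were read from GRCm38.p6, with RefSeq starts for comparison. The widest TSS peak within 250 bp was used per gene, and neighbours lay within 50 kb of the gene. CpG islands were merged windows of 200 bp in which GC made up 0.5 or more of the bases and the observed over expected CpG ratio was 0.6 or more. Percentiles are shares of genes with a smaller value. They are taken among genes with a peak for widths, and among all genes for neighbouring peaks. For reach they are taken among genes whose widest TSS peak covers the 5′-most TSS. Interval code was tested on simulated data. Python 3.11.15, numpy 2.4.6, pandas 2.3.3 and matplotlib 3.10.9 were used.

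The members, lists and rules were chosen with earlier results of these data known. All 10 members are named. From each other list the text names the 5 genes with the widest peak, up to 5 without a peak in alphabetical order, and every gene where the smaller side has 8 or fewer. Some list entries and 1 promoter sequence, with its CpG count and motifs, are not reported here. Alternatives were the TSS distance, TSS set, peak merging and width, gene end and neighbour window.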

Additional observations from a re-analysis of the deposited data

How the results depend on the processing

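No count or median rested on replicates, because 1 merged list without scores was given: leaving out a replicate and a stricter peak threshold could not be run. No paired analysis was possible because the result comes from no test. The 8 members with a peak became 7 with a TSS distance of 0 bp, with 1 TSS per gene or with peaks of at least 1000 bp, in each case by the loss of Atf3. The same setting of 0 bp gave a median width of 4880 bp. At 1000 bp Atf3 was counted with its 932 bp peak, and merging peaks within 1000 bp made that of Fosl2 9159 bp. The 30 neighbouring peaks became 64 within 100 kb and 21 within 25 kb. The share of all genes with a peak was 47.6% with 1 TSS per gene, 50.2% with comprehensive TSSs and 70.2% for genes with an island. The share past the gene end was 30.4% for genes of at most 5 kb. The 3 Jun genes passed the gene end under all alternatives run. Peak width also depends on depth and on the merging of nearby peaks by the authors, which was not tested.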
